A study of Homo sapiens with 2 samples.

Results

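The proteasome genes of HGC-27 cells were examined in a comparison of cells that carried an shRNA against DDX5, a DEAD-box RNA helicase, with cells that carried a non-targeting shRNA. Members were all genes of the table with an NCBI symbol of PSMA, PSMB, PSMC, PSMD, PSME or PSMG followed only by a number, together with PSMF1 and POMP. This gave 47 of 16021 rows, and all 47 reached 1 FPKM as the mean of the libraries. The lists also named PSMA8 and PSMB11, subunits of testis and thymus forms, which had no row. Genes with a longer symbol, such as PSMC3IP and PSME3IP1, are not subunits and were left out.

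HGC-27 is a human line that the labels describe as gastric adenocarcinoma. Both cultures were transduced with lentivirus, received puromycin 48 h later and were collected after 1 week of selection, so the control cells carried vector and selection too. Total RNA from each culture gave 1 library (n = 1 per condition). The comparison is therefore between 2 libraries, with no test, no error across cultures and no p-value. The sources used here do not give whether the line was cloned or which DDX5 sequence was targeted. Below, the library from cells with the non-targeting shRNA is called the control library. DDX5 mRNA was 170.5 FPKM there and 50.78 FPKM with the DDX5 shRNA, 29.8% of the control level. The labelled tissue was checked against markers. Epithelial markers were low, with EPCAM at 0.04 and 0.39 FPKM and KRT8 highest at 5.24 and 1.31 FPKM, and summed to 6.33 and 2.21 FPKM. Of 6 gastric mucous or chief cell genes, 5 had no row and MUC6 stood at 0.07 and 0.02 FPKM. Mesenchymal markers were mixed: VIM stood at 1583.62 and 1270.59 FPKM, TWIST1 at 98.96 and 199 FPKM and ZEB1 at 14 and 17.13 FPKM, but FN1 only at 4.76 and 5.99 FPKM and CDH2 at 0.07 and 0 FPKM. Markers of leukocytes summed to 2.5 FPKM in each library, and those of endothelium to 0.02 and 0.05 FPKM.

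The proteasome degrades proteins that carry chains of ubiquitin. Its barrel-shaped core particle has outer rings of alpha subunits, which gate the entry, and inner rings of beta subunits, some of which cut peptide bonds. A regulatory particle caps the barrel: its lid removes ubiquitin, and its base holds a ring of ATPases that unfold the substrate and push it in. Dedicated chaperones assemble both particles, interferon exchanges the cutting subunits for immunoproteasome forms, and the transcription factor NFE2L1 raises proteasome genes together when degradation capacity is short.

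Most proteasome genes were modestly lower in the DDX5 shRNA library, and the shift was uneven within every part of the particle. All ratios are log2 ratios of FPKM + 1, DDX5 shRNA over non-targeting shRNA, which slightly understates differences at low levels. FPKM is a fragment count divided by transcript length and sequencing depth, so levels can be compared between genes. Of the 47 members, 32 (68.1%) had a ratio below 0, where 47.8% of the 11413 genes past the same level did. The members' median was -0.26, beside 0.02 over all those genes. At least 1.5-fold lower were 10 members (21.3%), beside 10.1% of all genes, and 0 members were at least 1.5-fold higher, beside 13.1%. No member reached 2-fold in either direction, beside 2.26% of all genes at least 2-fold lower and 4.19% at least 2-fold higher. Among genes at a mean of 50 FPKM or more, where 34 members lie, 23 members were below 0, beside 50.9% of 1627 genes, and 7 were at least 1.5-fold lower, beside 13.4%. Summed over all members, FPKM was 5048.02 in the control library and 4418.65 in the DDX5 shRNA library, 0.919% and 0.743% of the libraries' total FPKM. In a bulk library, fewer cells of a kind and less RNA per cell cannot be told apart.

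The counts depend on how the libraries are scaled. Total FPKM was 549129 and 594757, and rescaling both to the same total moved the median of all genes by -0.10. At the same total 38 members (80.9%) lay below 0, beside 56.7% of all genes, and 13 were at least 1.5-fold lower, beside 14.3%. Judged from the spacing of the lowest FPKM values, the libraries held about 1.45e+07 and 1.43e+07 counted fragments, as an estimate. At that depth the counting error of a member's log2 ratio had a median of about 0.04 (SE) and was largest for PSMB9, about 0.28. These errors cover counting only, use the longest transcript of each gene and can be too small.

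**Figure D1:**
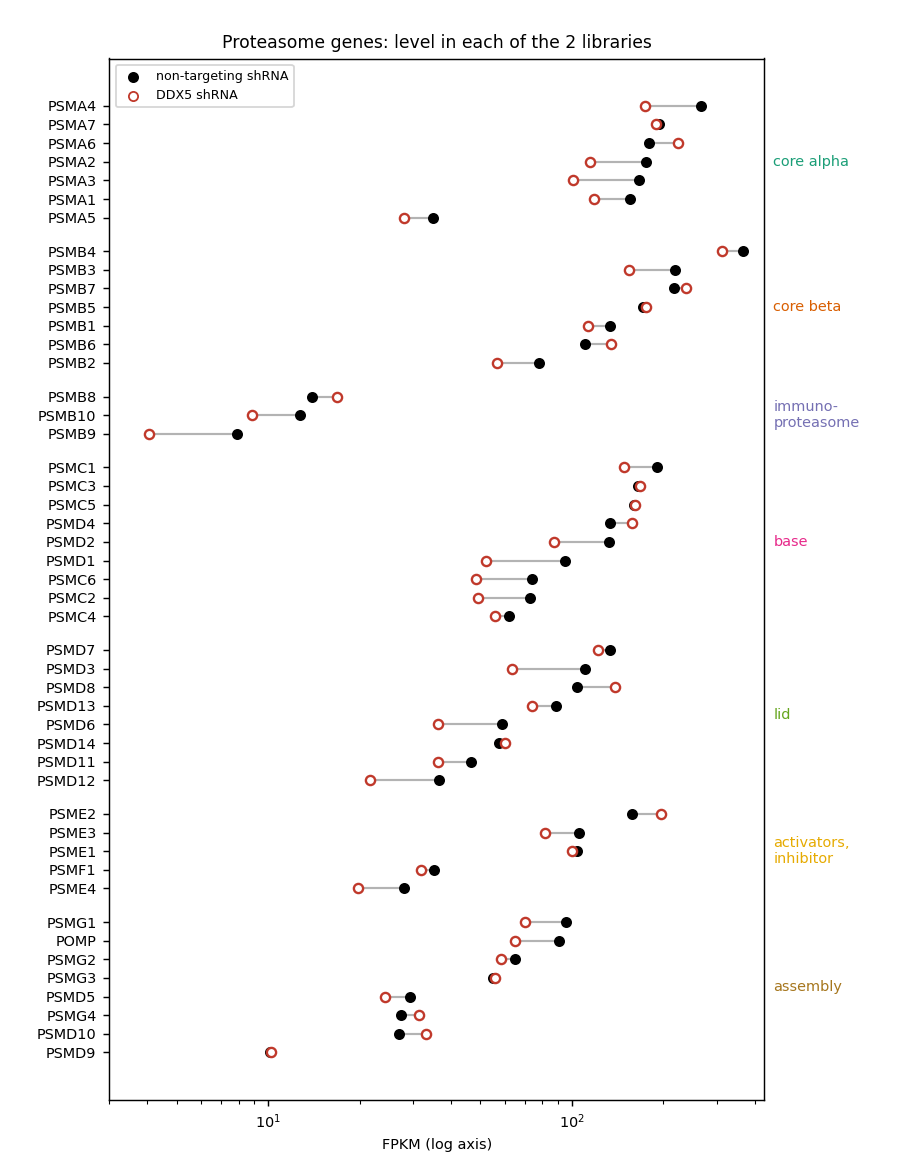
FPKM of the 47 proteasome genes (log axis) in the non-targeting library (filled points) and the DDX5 shRNA library (open points), 1 library each, grouped by role and sorted by the non-targeting level. PSMB4 is highest in both libraries (364.93 and 311.05 FPKM) and PSMB9 lowest (7.88 and 4.06 FPKM).

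In the alpha rings of the core, 6 of 7 genes were lower and the median ratio was -0.39. PSMA3 stood at 165.85 FPKM in the control library and 100.5 FPKM in the DDX5 shRNA library, a ratio of -0.72, the lowest of the ring. PSMA4 went from the highest alpha level, 266.08 FPKM, to 174.07 FPKM, and PSMA2 stood at 175.24 and 114.84 FPKM, both at a ratio of -0.61. These 3 alpha genes were at least 1.5-fold lower. PSMA1, at 155.5 and 118.3 FPKM, and PSMA5, at 34.87 and 28.05 FPKM, were lower by less, with ratios of -0.39 and -0.30. PSMA7 was level at 193.7 and 189.55 FPKM. PSMA6 was the alpha gene above 0, at 178.87 and 222.79 FPKM and a ratio of 0.32, so that PSMA6 overtook PSMA4 as the highest alpha mRNA. Its value is less certain than the others: 84.7% of its 50-base windows are shared with other annotated genes, mostly with 1 overlapping gene model (79.6%), and the sources used here do not say how such reads were divided. PSMA2 and PSMA1 share 51.4% and 44.6% of their windows in the same way. Each alpha ring holds 1 copy of each alpha subunit, yet the highest and lowest alpha mRNA differed 7.63-fold in the control library and 7.94-fold in the DDX5 shRNA library, with PSMA5 lowest in both.

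In the beta rings, the structural and the cutting subunits stood on opposite sides of 0, a split made after the values were seen. The structural subunits were all lower: PSMB3 stood at 218.69 and 153.68 FPKM (ratio -0.51), PSMB2 at 78.03 and 56.79 FPKM (-0.45), PSMB1 at 133.76 and 112.92 FPKM (-0.24) and PSMB4 at 364.93 and 311.05 FPKM (-0.23). Their summed FPKM was 795.41 and 634.44. The cutting subunits were PSMB5, which cleaves after hydrophobic residues, at 170.86 and 175.56 FPKM (0.04), PSMB6, which cleaves after acidic residues, at 110.67 and 134.5 FPKM (0.28), and PSMB7, which cleaves after basic residues, at 217.47 and 238.07 FPKM (0.13). Their summed FPKM was 499 and 548.13, or 9.85% higher. As a share of the libraries' total FPKM, which also differed, this was 0.0909% and 0.0922%, or nearly level. The direction of 2 of these 3 is not fixed by the data: PSMB5 lay at -0.08 at the same total, and PSMB7 at -0.0026 after a correction for transcript length and GC content. PSMB6 was above 0 under each scaling tried, at 0.16 or more. Over all 7 constitutive beta genes the median was -0.23, 4 were below 0 and none was 1.5-fold apart.

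The immunoproteasome subunits were weakly expressed and went in different directions. PSMB8, which replaces PSMB5 in interferon-treated and immune cells, stood at 13.95 and 16.81 FPKM, a ratio of 0.25. PSMB9, which replaces PSMB6, stood at 7.88 and 4.06 FPKM, 48.5% less. Its ratio of FPKM + 1 was -0.81, the second lowest of all members. These levels are about 79.0 and 40.2 fragments, the fewest of any member. PSMB10, which replaces PSMB7, stood at 12.74 and 8.86 FPKM, a ratio of -0.48, and shares 38.5% of its windows with an overlapping model. PSMB8 amounted to 8.16% of the PSMB5 level in the control library and 9.58% in the DDX5 shRNA library. PSMB9 amounted to 7.12% and 3.02% of PSMB6, and PSMB10 to 5.86% and 3.72% of PSMB7. The constitutive cutting subunits together exceeded their inducible counterparts 14.4-fold in the control library and 18.4-fold in the DDX5 shRNA library, so the constitutive form made up most of this mRNA in both.

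**Figure D2:**
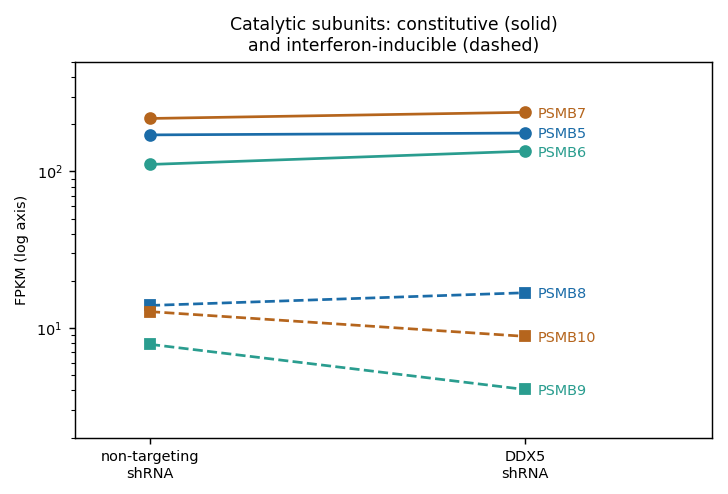
FPKM (log axis) of the constitutive cutting subunits (solid lines, circles) and the interferon-inducible subunit that replaces each (dashed lines, squares, same colour) in the 2 libraries. The constitutive genes lie between 110.67 and 238.07 FPKM and the inducible ones between 4.06 and 16.81 FPKM.

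The base of the regulatory particle had a median of -0.35, with 6 of 9 genes lower. Its lowest gene encodes a large scaffold subunit: PSMD1 stood at 94.54 and 52.27 FPKM, 44.7% less and, at -0.84, the lowest ratio of FPKM + 1 of all 47 members. That rank depends on the setting. With 0.1 in place of 1 added to FPKM, PSMB9 was lower (-0.94, beside -0.85 for PSMD1). After the correction for transcript length and GC content, PSMB9 (-0.93) and PSMD3 (-0.87) were lower than PSMD1 (-0.80). The other large scaffold, PSMD2, which docks the shuttle proteins that deliver ubiquitinated substrates, stood at 132.58 and 87.6 FPKM (-0.59). PSMD4, by contrast, a ubiquitin receptor at the border of base and lid, stood at 133.18 and 157.49 FPKM (0.24), although 22.1% of its windows also occur in PIPSL, a retrocopy.

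The ATPases of the base, which form 1 ring, did not move as a unit. PSMC6 stood at 73.62 and 48.16 FPKM (-0.60), PSMC2 at 72.97 and 49.12 FPKM (-0.56) and PSMC1 at 189.85 and 148.32 FPKM (-0.35). PSMC4 was close to level at 62.01 and 56.01 FPKM (-0.14). PSMC3, at 164.54 and 167.39 FPKM, and PSMC5, at 159.47 and 160.92 FPKM, had ratios of 0.02 and 0.01, which lay below 0 at the same total. The ATPase with the lowest ratio and the one with the highest were thus 0.63 apart on the log2 scale. PSMC1 and PSMC6 share 28.9% and 25.2% of their windows with other annotated genes, chiefly processed pseudogenes. RefSeq names 53 pseudogenes of the members, and 0 of them had a row.

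The lid held the widest spread. Its median was -0.31, 6 of 8 genes were lower and 3 were at least 1.5-fold lower, beside 1 gene with the highest ratio of all members. PSMD3 stood at 110.09 and 63.45 FPKM (-0.79), PSMD12 at 36.44 and 21.73 FPKM (-0.72) and PSMD6 at 58.97 and 36.15 FPKM (-0.69), all of them members of the horseshoe of scaffold subunits. PSMD11 and PSMD13, of the same horseshoe, were lower by less, at 46.59 and 36.19 FPKM (-0.36) and at 88.74 and 73.98 FPKM (-0.26). PSMD8, also a horseshoe subunit, went the other way at 104.08 and 138.51 FPKM (0.41). The enzyme of the lid, the deubiquitinase PSMD14, was nearly level at 57.35 and 60.33 FPKM (0.07, and -0.04 at the same total). Its inactive partner PSMD7 stood at 133.6 and 122.25 FPKM (-0.13). In the control library PSMD3 was slightly above PSMD8, and in the DDX5 shRNA library the PSMD8 level was 2.18 times that of PSMD3.

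**Figure D3:**
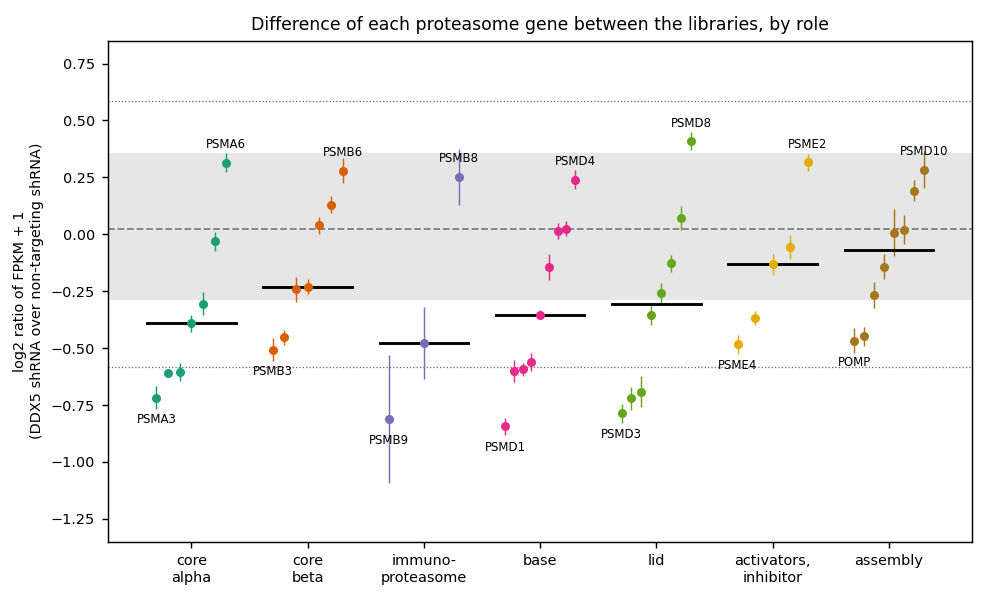
Log2 ratio of FPKM + 1 (DDX5 shRNA over non-targeting shRNA) of each proteasome gene, by role, with approximate counting error (1 SE bars, which do not cover differences between cultures), group medians (black lines), 1.5-fold limits (dotted lines), and the median (dashed) and middle 50% (grey) of the 11413 genes at a mean of 1 FPKM or more. Each group holds genes above 0 and below 0, and the group medians run from -0.48 to -0.07.

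By group median, the activators and inhibitor and the assembly factors lay nearer to 0 than the other groups. PSME1 and PSME2 form an interferon-inducible cap that opens the core without ATP. PSME1 was level at 104.13 and 100.07 FPKM (-0.06), and PSME2 was higher at 157.82 and 196.62 FPKM (0.32), so the ratio of PSME2 to PSME1 mRNA was 1.52 in the control library and 1.96 in the DDX5 shRNA library. PSME3, the nuclear relative of this cap, stood at 105.42 and 81.54 FPKM (-0.37). PSME4, a large activator of a different fold, stood at 27.95 and 19.72 FPKM (-0.48), and PSMF1, first described as an inhibitor of the core, at 35.06 and 31.9 FPKM (-0.13). The median of these 5 genes was -0.13, and 4 of them were below 0. Their summed FPKM was 430.38 and 429.85, or 0.0784% and 0.0723% of the libraries' total.

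Among the 8 assembly factors, 4 were lower and 4 higher, with a median of -0.07 and none 1.5-fold apart. POMP, which guides the beta subunits into the ring, stood at 90.38 and 65.1 FPKM (-0.47). PSMG1 and PSMG2 work as a pair on the alpha ring and stood at 95.8 and 69.97 FPKM (-0.45) and at 64.73 and 58.57 FPKM (-0.14). The other pair, PSMG3 and PSMG4, was not lower as deposited, at 55 and 55.8 FPKM (0.02, and -0.09 at the same total) and at 27.4 and 31.43 FPKM (0.19). The chaperones of the base were PSMD5 at 29.39 and 24.29 FPKM (-0.27), PSMD9 at 10.17 and 10.22 FPKM (0.01, with 36.5% of its windows shared) and PSMD10, also called gankyrin, at 27.06 and 33.15 FPKM (0.28).

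Genes that act with the proteasome were then set beside it, from lists that are not part of the member rule. Of 15 proteasome-associated genes, 9 were below 0 and none was 1.5-fold apart, with a median of -0.10. Subunits that carry other symbols were SEM1, a small lid protein, at 179.91 and 135.8 FPKM (-0.40), and the ubiquitin receptor ADRM1 at 117.97 and 113.24 FPKM (-0.06). The deubiquitinases that sit on the particle were both lower: USP14 stood at 79.66 and 62.35 FPKM (-0.35) and UCHL5 at 20.6 and 16.03 FPKM (-0.34). UBE3C, a ligase that extends ubiquitin chains at the proteasome, stood at 45.56 and 31.74 FPKM (-0.51). AKIRIN2, needed for import of proteasomes into the nucleus, and FBXO7, a binding partner of PSMF1, were higher, at 23.08 and 32.32 FPKM (0.47) and at 52.62 and 69.06 FPKM (0.39).

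The list of genes for ubiquitin, its shuttles and VCP did not share the lower median. These are mRNA levels, and ubiquitinated proteins were not measured. Of 14 ubiquitin, shuttle and VCP genes, 8 were below 0, and their median was -0.02. VCP, the ATPase that extracts substrates for the proteasome, stood at 139.73 and 86.08 FPKM (-0.69), and its cofactor UFD1 at 43.77 and 31.37 FPKM (-0.47). The polyubiquitin gene UBB went the other way, at 410.5 and 543.28 FPKM (0.40).

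Genes that control proteasome transcription lay on both sides of 0, with NFE2L1 the highest. NFE2L1 stood at 55.2 and 122.02 FPKM, a ratio of 1.13 (1.02 at the same total). NGLY1, which removes sugars from the NFE2L1 protein during its activation, stood at 15.83 and 21.34 FPKM (0.41), and MAFG, a partner in DNA binding, at 12.16 and 17.77 FPKM (0.51). The repressor BACH1 stood at 4.66 and 6.17 FPKM (0.34). NFE2L2, which binds the same DNA element, was near level at 41.39 and 45.08 FPKM (0.12). Of 9 genes in this list 8 passed the level of 1 FPKM, with 5 above 0, 3 below 0 and a median of 0.23. Those below 0, named after their values were seen, were DDI2, the protease that cuts NFE2L1 during its activation, at 4.27 and 2.71 FPKM (-0.51), KEAP1, the adaptor that keeps NFE2L2 low, at 92.73 and 75.45 FPKM (-0.29), and MAFK, another DNA-binding partner, at 5.11 and 4.15 FPKM (-0.25). These are mRNA levels, and NFE2L1 is regulated to a large extent at the protein level, which was not measured here.

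The element that NFE2L1 and NFE2L2 bind was sought in the promoters of the members, since NFE2L1 is their known activator. RefSeq windows (GRCh38.p14, 250 bases before to 50 after the start) were found for 41 of 47 members, all but PSMA7, PSMB1, PSMB6, PSMB7, PSMD4 and PSMG3. The core of the antioxidant response element, TGACNNNGC on either strand, occurred in 15 of 41 members (36.6%) and in 16.1% of 27305 genes with such windows. Those genes outnumber the 16021 rows of these data, so many have no value here, whereas all members were expressed. The shares are therefore not from like sets of genes. The median ratio was -0.45 for the 15 members with a match and -0.33 for the 26 without, and 5 members of each kind were at least 1.5-fold lower. Both medians lie below the -0.26 of all members. Of the members without a window, PSMB6, PSMB7, PSMD4 and PSMG3 were above 0 as deposited, and PSMA7 and PSMB1 below. CCAAT occurred in 19 of 41 members (46.3%) and in 39.7% of the same 27305 genes, and the heat shock element core GAANNTTC in 0 of 41 and 8.21%. Both strands were searched for each, 0 matches of different motifs overlapped in the members, and a match describes the letters only. The stretches below show matches in members from the low to the high end of the ratios, with the 9 matched bases in capitals and 16 bases on each side, written in the direction of the gene.
PSMD3 (ratio -0.79, 37 bases before the start, GRCh38.p14 chr17:39980754-39980794, plus strand): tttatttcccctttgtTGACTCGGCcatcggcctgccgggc
PSMB9 (ratio -0.81, 148 bases before the start, chr6:32854028-32854068, plus strand, motif on the opposite strand): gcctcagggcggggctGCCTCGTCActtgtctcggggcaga
PSMD12 (ratio -0.72, 165 bases before the start, chr17:67366718-67366758, minus strand): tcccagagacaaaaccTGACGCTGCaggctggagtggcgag
PSMB3 (ratio -0.51, 104 bases before the start, chr17:38752621-38752661, plus strand): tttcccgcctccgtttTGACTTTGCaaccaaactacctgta
PSMD9 (ratio 0.01, 102 bases before the start, chr12:121888672-121888712, plus strand): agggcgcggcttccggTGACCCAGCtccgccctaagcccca
PSME2 (ratio 0.32, 175 bases before the start, chr14:24146761-24146801, minus strand): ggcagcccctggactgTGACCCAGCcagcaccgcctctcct

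The letters of PSMD9 and PSME2 were identical within the match shown (TGACCCAGC), with ratios of 0.01 and 0.32. PSMD3, PSMB9 and PSMD12 each carried different central bases and lay between -0.72 and -0.81. PSMD5 (-0.27) and PSMG1 (-0.45), not shown, carried other central bases too, and PSMD9 and PSMD3 each held a further match. Also not shown, PSME1 (-0.06) and PSMG2 (-0.14) had identical letters (TGACCCCGC). PSME4 (-0.48), with its motif on the opposite strand, had the same letters as PSMD12 (-0.72). The stretches were picked by their ratios, and a link between letters and ratios was not tested. PSMD1, the lowest member by the ratio of FPKM + 1, had its match 39 bases after the start. A match was thus present both in the lowest members and in one of the highest.

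For the immunoproteasome subunits, the interferon and peptide loading list gives the neighbouring values. Of its 11 genes, 7 were below 0 and the median was -0.17. TAP1, the peptide transporter gene that shares a start region with PSMB9, was near level at 9.28 and 8.78 FPKM (-0.07), unlike PSMB9. TAP2, which encodes the other transporter chain, stood at 20.01 and 11.86 FPKM (-0.71). The interferon-response factors IRF9 and STAT2 were higher, at 4.33 and 9.06 FPKM (0.92) and at 6.34 and 8.72 FPKM (0.41), as was the peptide-trimming enzyme ERAP1, at 4.91 and 7.48 FPKM (0.52). The list thus held no common direction.

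Other large complexes of fixed composition were used for comparison: the COP9 signalosome and the initiation factor eIF3, which are built on the same plan as the lid, and the CCT chaperonin, which folds actin and tubulin. The COP9 list had a median of -0.09 over 9 genes, with COPS6 at 139.12 and 197.71 FPKM (0.50) and COPS4 at 45.32 and 32.02 FPKM (-0.49). The eIF3 list had a median of -0.02 over 13 genes, with the scaffold EIF3A at 76.49 and 38.96 FPKM (-0.96) and EIF3K at 148.98 and 200.57 FPKM (0.43). The CCT list was lower than the proteasome, with a median of -0.59, all 8 genes below 0 and 4 at least 1.5-fold lower. Its lowest gene, TCP1, stood at 185.69 and 93.11 FPKM (-0.99). By median the proteasome members, at -0.26, lay between the CCT chaperonin and the complexes related to the lid. With 1 library per condition these differences between lists were not tested.

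**Figure D4:**
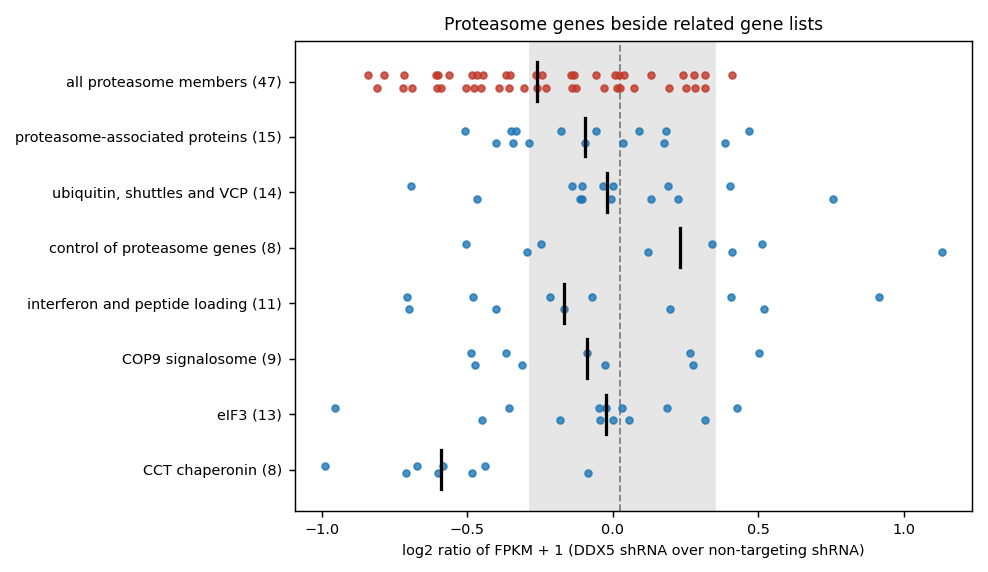
Log2 ratio of FPKM + 1 (DDX5 shRNA over non-targeting shRNA) of the proteasome members (red) and of related gene lists (blue, number of genes in parentheses), with list medians (black lines) and the median (dashed) and middle 50% (grey) of all genes past 1 FPKM. The proteasome median of -0.26 lies between those of the CCT chaperonin (-0.59) and the COP9 signalosome (-0.09), and the rightmost point of the control list is NFE2L1 (1.13).

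The members' ratios moved with the base composition of their transcripts. Among the 24 members with a GC content up to the members' median of 49.1%, 21 were below 0 and the median ratio was -0.42. Among the 23 members above it, 11 were below 0 and the median was 0.01. Across the 47 members Spearman's rho between GC content and ratio was 0.38, and across 11172 genes it was 0.05; genes of one pair of libraries are not independent replicates. The members richest in adenine and thymine included POMP (34.6% GC), PSMC6 (36.8%) and PSMD12 (37.9%), all lower, whereas PSMD3 (58.6%), PSMB9 (53.9%) and PSMD2 (54.3%) were lower at a high GC content. Shorter transcripts were also higher: the median was -0.01 for the 24 members up to 1581 bases and -0.36 for the 23 longer ones. With ratios corrected for length and GC content over all genes, the members' median was -0.27, beside 0.02 over all genes. Under this correction 37 members were below 0 and 9 were at least 1.5-fold lower. The matching shares of all genes were not counted, so these 2 counts have nothing to be set beside.

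**Figure D5:**
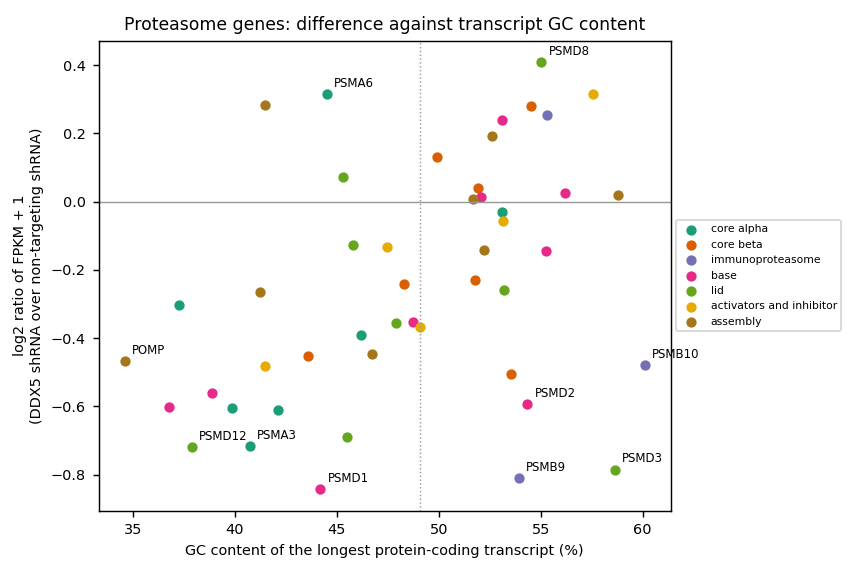
Log2 ratio of FPKM + 1 (DDX5 shRNA over non-targeting shRNA) of the 47 proteasome genes against the GC content of the longest protein-coding transcript, coloured by role. The dotted line marks the members' median of 49.1%; 21 of 24 genes at or left of it and 11 of 23 right of it lie below 0.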

How the data were processed

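The authors deposited 1 table of FPKM with 1 column per library, per the file headers, and columns were assigned by sample title. HISAT, Bowtie2, RSEM 1.2.8 and build hg19 are named in the submitters' processing notes without roles; the sources used here do not give the annotation, strand setting or filters. Entrez numbers were matched to RefSeq symbols (GRCh38.p14; 15289 of 16021 rows). Log2 ratios used a pseudocount of 1, and counts over all genes used a mean of 1 FPKM or more. No test was run, since each condition has 1 library. Lengths and GC content came from GENCODE v29. Fragment totals were estimated from the steps of low FPKM values: at the best step, with lengths shortened by 100 bases, 66.2% of 74 genes and 65.2% of 69 genes fell within 0.15 of a whole number. Named were all members, DDX5, ADRM1, SEM1, UCHL5, USP14, NFE2L1, NFE2L2, TAP1 and up to 4 genes per related list with the largest absolute ratio at a mean of 5 FPKM or more; neighbouring genes were added later, and 1 gene that the rule names is not reported here. Members and lists were chosen with earlier results of these data known. Alternatives were pseudocounts of 0.1 and 5, no filter or a filter at 5 FPKM, equal totals, and centring of the ratios on their median or their trimmed mean (30% off each end); a correction by bins of length and GC content (10 by 10) was added after the data were seen. Tools were Python 3.11.15 with scipy 1.17.1, pandas 2.3.3, numpy 2.4.6 and, for plots, matplotlib 3.10.9. The procedure was tested on simulated data.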

Additional observations from a re-analysis of the deposited data

How the results depend on the processing

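Over the main setting and 8 alternatives, the median log2 ratio of the proteasome members ranged from -0.37 to -0.23. The number below 0 ranged from 32 to 38 and the number at least 1.5-fold lower from 7 to 13. Shares of all genes were counted only as deposited and at the same total. The lowest member mean was 5.97 FPKM (PSMB9), so the 2 filter alternatives could not change any member value. Under each setting 0 members were at least 1.5-fold higher and 0 were 2-fold apart. The medians of all 7 groups were below 0 under each, with the highest at -0.06 (assembly, pseudocount of 5) and the lowest at -0.68 (immunoproteasome, corrected for length and GC content). Over the 6 alternatives that change a gene's ratio, 40 members kept their sign, 32 below 0 and 8 above; the other 7 (PSMB5, PSMB7, PSMC3, PSMC5, PSMD9, PSMD14 and PSMG3) were above 0 as deposited and below 0 under at least 1. Depth limits PSMB9 most, and differences between cultures were not measured. No paired analysis was possible because each condition has 1 library.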

Other observations

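Proteasome genes lie on 18 chromosomes, and several share a start region with a gene read in the opposite direction. In RefSeq windows, 12 members had such a neighbour within 1000 bases, 9 of them protein-coding. The median ratio was -0.14 for these 12 and -0.35 for the other 35 members. Those 35 include PSMA7, PSMB1, PSMB6, PSMB7, PSMD4 and PSMG3, which had no promoter window. A neighbour of these genes may therefore have been missed. PSMA2 and its neighbour MRPL32, a mitochondrial ribosomal protein gene, were lower together, at 175.24 and 114.84 FPKM and at 137.31 and 92.79 FPKM (ratios of -0.61 and -0.56). PSMC5 and FTSJ3, a ribosome assembly gene, differed, with PSMC5 at 159.47 and 160.92 FPKM and FTSJ3 at 43.99 and 26.83 FPKM (0.01 and -0.69). PSMD13 and the sirtuin gene SIRT3 lay on opposite sides of 0, at -0.26 and 0.33. The 8 neighbours at a mean of 1 FPKM or more had a median of -0.0026, with 4 below 0. The pairs named here were chosen after their values were seen.

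On chromosome 14, which holds 7 members, ratios ran from PSMA3 at -0.72 to PSME2 and PSMA6 at 0.32, and on chromosome 17, also with 7, from PSMD3 at -0.79 to PSMB6 at 0.28. On both chromosomes members lay on both sides of 0. Of the chromosomes with 2 members, 3, 16 and 20 had both below 0, and 9 and 19 had 1 below 0. Over all chromosomes 32 of 47 members were below 0.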
